A study of Arabidopsis thaliana with 12 samples.

Results

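The genes described are 10 Arabidopsis loci known to be induced by low oxygen: AT4G10270, AT4G27450, AT1G33055, AT3G27220, AT4G24110, AT4G33560, AT5G10040, AT3G03270, AT3G10020 and AT1G19530. Each of the 10 has exactly 1 probe set of its own among the 13513 that name 1 gene, of 22746 tested. The rule for a locus with several, the highest mean over 12 arrays, was therefore not needed. Probe sets without a name or with several genes were not assigned to a locus. The loci were chosen by name, with earlier results of these arrays known. AT4G10270 was selected on its large difference between stem base and internode, and AT4G27450 on its large difference between genotypes at the base. Their values in these comparisons are given as a description, with no test, and counts of called genes leave them out there. Their other comparisons share arrays with these, so the tests and counts there are not free of that selection.

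Inflorescence stems of Arabidopsis thaliana were profiled on 12 Affymetrix arrays in 4 groups of 3, namely wild type (Columbia) and the mutant wox4-1, each at the stem base and in the first internode. Plants were 49 to 58 days old and 15 to 20 cm tall, grown for 3 weeks with 8 h of light and then with 16 h of light. Every array holds RNA from a pool of 13 to 17 stem fragments of 0.5 cm, and the internode fragments were taken 1.5 to 2.0 cm above the rosette. The labels call the arrays biological replicates, give the ecotype only for wild type, and do not describe the wox4-1 allele. WOX4, a homeobox gene that promotes division in the cambium, was not analysed here, so its level gives no check of the genotype labels.

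Plant cells sense oxygen through group VII ethylene response factors. In air, cysteine oxidases mark these factors for destruction by the N-degron pathway, and when oxygen falls they persist and switch on a core set of genes for fermentation, for sensing itself and for many small proteins of unknown function. The genes described here belong mostly to the last kind. In Arabidopsis shoots a low-oxygen niche is known from the apical meristem. Oxygen was not measured in this study.

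Array medians lay between log2 5.57 and 5.72. The 3′ and 5′ probe sets of the actin control differed by log2 2.26 in wox4-1 internode replicate 2 and by 1.22 to 1.51 on the other 11 arrays. The stem identity could be checked with few genes. IRX10, a xylan synthesis gene of the secondary wall and 1 of 11 xylem and fibre markers measured, was at 9.80 to 10.05 at the wild-type base and 10.16 to 10.58 in the wild-type internode (log2 -0.39, SE 0.11, limma adjusted p 0.0248). In wox4-1 it was at 10.18 to 10.32 at the base and 10.37 to 10.57 in the internode. No phloem or flower marker was measured by name. Of 7 root markers 6 were measured. Their summed log2 level was 21.0 to 22.5 in wild type and 21.9 to 22.5 in wox4-1 at the base, against 20.5 to 21.2 and 20.7 to 21.2 in the internode. PYK10, the only called gene among them, was at 3.86 to 4.22 at the wild-type base and 3.19 to 3.23 in the internode. The median log2 position difference of the 6 was -0.01 in wild type and 0.06 in wox4-1. Averaged over all arrays, the root markers EXPA18, AT3G12540 and AT5G17820 were at log2 3.30, 3.24 and 3.24. These levels are below the 25th percentile of probe set means (3.62), and EXPA7, at 3.65, was just above it. Arrays separate such dim levels poorly, so the medians cannot decide whether the root markers rose as a set. The 3 measured leaf markers (of 7) were all called lower at the base in both genotypes. Their summed level was 30.4 to 31.0 at the wild-type base and 33.3 to 33.9 in the internode. What part these tissues have in the differences below was not tested. In such bulk samples, fewer cells of a type and less RNA per cell cannot be told apart.

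At the base of wild-type stems, most of the low-oxygen genes stood higher than in the first internode. The differences reached 9.94-fold for AT4G10270, 5.36-fold for AT1G33055, 4.47-fold for AT1G19530 and 2.99-fold for AT3G27220, and were smaller for AT4G27450, AT3G03270 and AT4G33560. AT4G24110, AT5G10040 and AT3G10020 did not pass the test. Of the 9 genes tested, AT4G10270 left aside, 6 were called higher at the base and none lower, where a call is an adjusted p under 0.05 in limma's moderated test over all probe sets. The 6 include AT4G27450, selected on a contrast that uses the same base arrays, and so do the 5 called in wox4-1 below. The background over all probe sets was 9.6% called higher and 10.1% called lower. The median log2 difference was 0.75 over the 9 genes and 0.01 over all probe sets. In wox4-1 stems 5 of 9 genes were called higher at the base and none lower, with 11.4% of all probe sets called higher and 13% lower, and the medians were 0.36 and 0.04. The arrays of base and internode did not overlap, with the base higher, for 7 of 9 genes in wild type and 6 of 9 in wox4-1, against 20.4% and 21.1% of all probe sets.

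**Figure D1:**
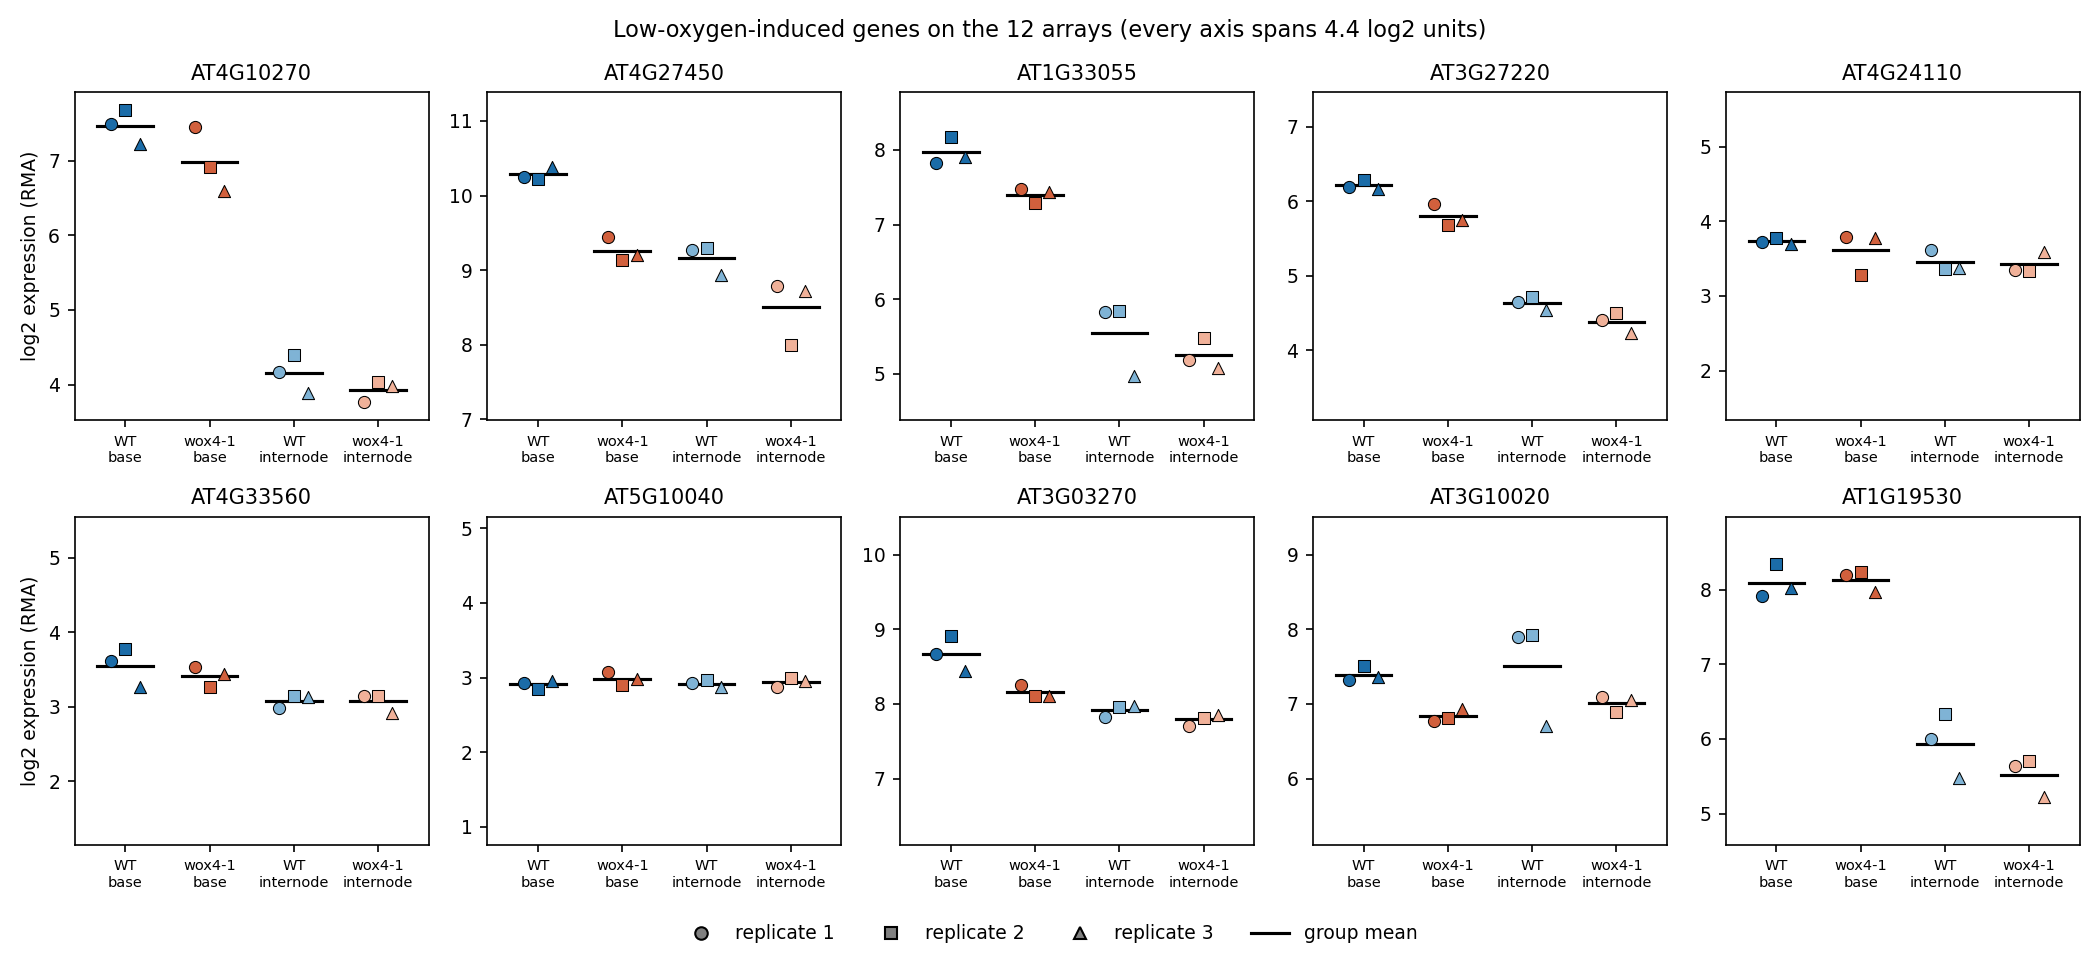
Each panel shows 1 gene on the 12 arrays, with log2 expression (RMA) on the vertical axis and the 4 groups on the horizontal axis. Points are arrays, marker shapes are replicates, lines are group means, and every axis spans the same number of log2 units. AT4G10270, AT1G33055, AT1G19530 and AT3G27220 form a high pair of base groups and a low pair of internode groups, while AT5G10040 lies between 2.85 and 3.07 throughout.

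AT4G10270 encodes a small protein of the wound-responsive family. Its log2 level was 7.49, 7.68 and 7.22 on the wild-type base arrays and 7.46, 6.91 and 6.59 in wox4-1. In the internode it was 4.17, 4.39 and 3.88 in wild type and 3.76, 4.04 and 3.98 in wox4-1. All 6 base arrays lay above all 6 internode arrays, by at least 2 log2 units. The means differed by log2 3.31 in wild type (7.46, SD 0.23, against 4.15, SD 0.26, n = 3 each) and by 3.06, or 8.32-fold, in wox4-1 (6.99, SD 0.44, against 3.93, SD 0.15). Both internode means are close to the dim range, in which arrays separate levels poorly. Genotype groups overlapped at both positions. The wox4-1 difference was -0.47 at the base (SE 0.19, 95% interval -0.89 to -0.06, limma adjusted p 0.175) and -0.22 in the internode (SE 0.19, adjusted p 0.869). Without wox4-1 base replicate 1, the highest of its group, the base difference was -0.71 and called (adjusted p 0.0372).

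AT4G33560 belongs to the same wound-responsive family but was dim. Its mean over the 12 arrays was log2 3.28, and those of AT4G24110 and AT5G10040 were 3.55 and 2.94. All 3 lie below the 25th percentile of probe set means (3.62), so absence of a call says little for them. AT4G33560 was at 3.61, 3.78 and 3.27 at the wild-type base and 2.98, 3.14 and 3.12 in the internode, and these groups did not overlap. It rose by log2 0.47 at the wild-type base (SE 0.12, limma adjusted p 0.0155). Leaving out a single array ended the call for wild-type base replicate 1 (adjusted p 0.0539), base replicate 2 (0.0793) and internode replicate 1 (0.0621). In wox4-1 the difference was 0.34 (SE 0.12, adjusted p 0.061). That value passed with each array centred on its median (0.43, adjusted p 0.0194) and when any of wild-type base replicate 2 (0.0436), base replicate 3 (0.0272) or wox4-1 base replicate 2 (0.0427) was left out.

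AT3G03270, known as HRU1, encodes a universal stress protein linked to hydrogen peroxide production under low oxygen. Its log2 level was 8.67, 8.92 and 8.44 at the wild-type base and 8.25, 8.10 and 8.11 at the wox4-1 base. In the internode it was 7.83, 7.96 and 7.97 in wild type and 7.71, 7.81 and 7.86 in wox4-1. The base arrays of each genotype stood above its internode arrays, and the wild-type base stood above every other array. HRU1 rose at the base by log2 0.75 in wild type (SE 0.11, limma adjusted p 0.000261) and by 0.36 in wox4-1 (SE 0.11, adjusted p 0.0256). Of the wox4-1 arrays, omission of base replicate 1 (adjusted p 0.0812), internode replicate 1 (0.0891) or internode replicate 2 (0.0565) ended the call in wox4-1.

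AT4G27450 encodes a protein of the aluminium-induced family with YGL and LRDR motifs. It was at 10.24, 10.22 and 10.38 at the wild-type base and at 9.45, 9.13 and 9.20 at the wox4-1 base. The internode arrays read 9.28, 9.29 and 8.93 in wild type and 8.79, 8.00 and 8.72 in wox4-1. Here the wox4-1 base overlapped the wild-type internode, and only the wild-type base and the wox4-1 internode stood apart as the highest and the lowest group. AT4G27450 rose at the base by log2 1.12 in wild type (SE 0.18, limma adjusted p 0.000563) and by 0.76 in wox4-1 (SE 0.18, adjusted p 0.00676). Both tests reuse base arrays of the genotype contrast on which the gene was selected, so they are not free of that choice. Without wox4-1 internode replicate 2, the array with the large actin difference, the wox4-1 value was 0.51 (adjusted p 0.015).

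AT3G27220 encodes a protein with kelch repeats. Its level was 6.20, 6.29 and 6.16 at the wild-type base, 5.97, 5.68 and 5.75 at the wox4-1 base, 4.65, 4.71 and 4.54 in the wild-type internode and 4.41, 4.50 and 4.24 in the wox4-1 internode. It is the 1 gene of the 10 whose 4 groups did not overlap anywhere, in the order wild-type base, wox4-1 base, wild-type internode, wox4-1 internode. The rise at the base was log2 1.58 in wild type (SE 0.10, limma adjusted p 1.88e-07) and 1.42 in wox4-1 (SE 0.10, adjusted p 4.47e-07).

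AT1G33055 and AT1G19530 encode proteins without a settled function. AT1G33055 was at 7.82, 8.18 and 7.90 at the wild-type base and 7.48, 7.29 and 7.44 at the wox4-1 base, against 5.83, 5.84 and 4.98 and 5.18, 5.48 and 5.07 in the internode. Base and internode arrays were well apart, and in the wild-type internode replicate 3 was below the other two. AT1G33055 rose by log2 2.42 in wild type (SE 0.19, limma adjusted p 1.88e-06) and by 2.16 in wox4-1 (SE 0.19, adjusted p 5.03e-06). AT1G19530 was at 7.92, 8.35 and 8.02 at the wild-type base and 8.20, 8.23 and 7.97 at the wox4-1 base. Its internode values were 6.0, 6.34 and 5.47 in wild type and 5.64, 5.70 and 5.22 in wox4-1. It rose by 2.16 in wild type (SE 0.19, limma adjusted p 5.01e-06) and by 2.62 in wox4-1 (SE 0.19, adjusted p 9.23e-07), and it is the only 1 of the 6 genes called at the wild-type base for which the wox4-1 value was the larger.

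The 3 remaining genes did not pass the test for position. AT3G10020, of unknown function, was at 7.32, 7.50 and 7.36 at the wild-type base and at 7.89, 7.92 and 6.71 in the wild-type internode. Its position difference in wild type was log2 -0.11 (SE 0.23, 95% interval -0.62 to 0.39, limma adjusted p 0.816). Wild-type internode replicate 3 decides this value. Without it the difference was -0.51 and called (adjusted p 0.00348), lower at the base. In wox4-1 the arrays read 6.77, 6.82 and 6.93 at the base and 7.10, 6.89 and 7.06 in the internode, a difference of -0.18 (95% interval -0.68 to 0.33, adjusted p 0.631). AT4G24110 differed by 0.28 in wild type (95% interval 0.00 to 0.56, adjusted p 0.159), and these groups did not overlap. That value passed with the 2 groups fitted alone (adjusted p 0.0498). In wox4-1 AT4G24110 differed by 0.19 (adjusted p 0.31), which passed without wox4-1 base replicate 2 (0.36, adjusted p 0.025). AT5G10040 differed by -0.01 (95% interval -0.17 to 0.15) and 0.04 (-0.12 to 0.21).

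**Figure D2:**
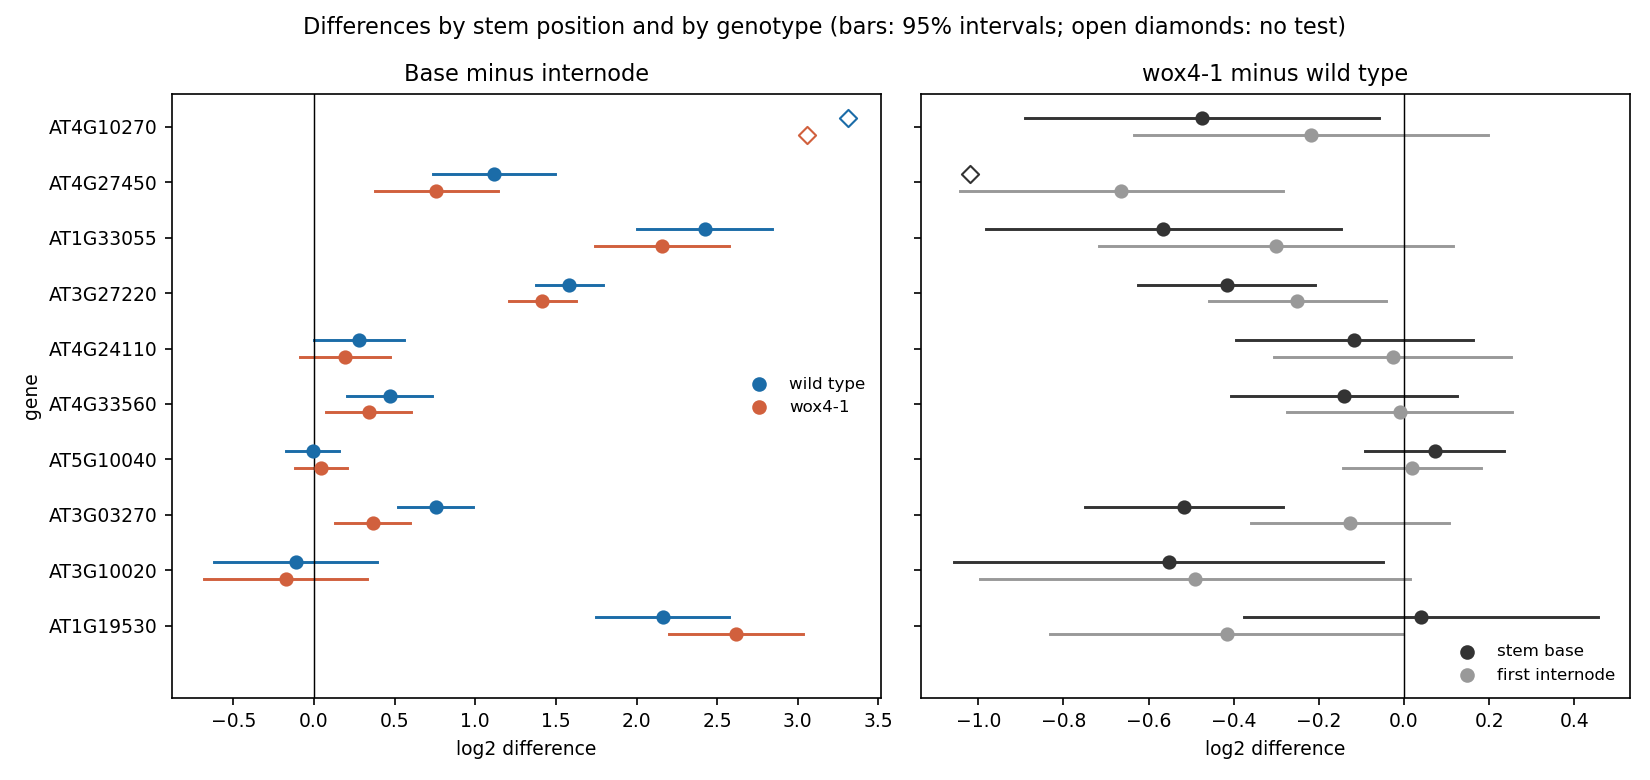
The horizontal axes show log2 differences, base minus internode on the left and wox4-1 minus wild type on the right, with 1 row per gene. Filled points carry 95% intervals from the limma fit, and open diamonds mark values given without a test. Position differences extend to log2 3.31, whereas no genotype difference is larger than 1.02 in size. At the base 7 of the 9 genes tested have genotype values below 0, against 45.9% of all probe sets. AT4G27450, selected on this contrast, is left out of that count.

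The next comparison asked whether the level of these genes differed in the wox4-1 mutant. At the stem base AT4G27450, HRU1 and AT3G27220 were lower in wox4-1 than in wild type, by 2.03-fold, 1.43-fold and 1.33-fold. AT4G27450 was selected on this contrast. Of the other 9 genes, HRU1 and AT3G27220 are the 2 called lower, and none was called higher, against 2.51% of all probe sets called lower and 2.52% higher. The median log2 difference was -0.42 over the 9 genes and 0.02 over all probe sets. For 4 of 9 genes every wox4-1 base array lay below every wild-type base array, against 11.6% of all probe sets. They were HRU1, AT3G27220, AT1G33055 and AT3G10020.

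AT4G27450 had the largest genotype difference of the 10. Base means of 10.28 (SD 0.08) for wild type and 9.26 (SD 0.17) for wox4-1, n = 3 each, put it log2 -1.02 apart, given without a test. HRU1 fell by 0.52 on the log2 scale (SE 0.11, limma adjusted p 0.0176), and AT3G27220 fell by 0.42 (SE 0.10, adjusted p 0.0277). Both calls depended on single arrays. That of HRU1 was lost on leaving out wild-type base replicate 1 (adjusted p 0.0527), wild-type base replicate 2 (0.0749) or wox4-1 base replicate 3 (0.058). That of AT3G27220 was lost on leaving out any wild-type base array (0.0691, 0.117 and 0.0544 for replicates 1, 2 and 3) or wox4-1 base replicate 2 (0.0629) or 3 (0.0845). It was also lost with each array centred on its median (log2 -0.35, adjusted p 0.052). With the 2 base groups fitted alone 2 of 9 genes were called as well, but not these: AT3G27220 (adjusted p 0.0771) and HRU1 (0.0776) were lost, and AT1G33055 (log2 -0.56, adjusted p 0.0468) and AT3G10020 (-0.55, adjusted p 0.0247) were gained. In the fit of all arrays the latter had adjusted p of 0.11 and 0.191. Of the 9 genes, 0 were called with any of wild-type base replicate 1, base replicate 2 or wox4-1 base replicate 3 left out, and 4 with wild-type internode replicate 3 left out, where AT1G33055 (adjusted p 0.0212) and AT3G10020 (0.00427) were added. The actin control difference moved with genotype at the base too, with 1.44 to 1.51 in wild type and 1.22 to 1.33 in wox4-1, and its part in these results was not tested.

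AT1G19530 had nearly the same level in both genotypes at the base, with means of 8.10 (SD 0.22) and 8.14 (SD 0.14) and a difference of log2 0.04 (95% interval -0.38 to 0.45, limma adjusted p 0.93). AT1G33055 had -0.56 there (95% interval -0.98 to -0.15, limma adjusted p 0.11) and was not called either. The 2 genes were not tested against each other. Both rose over 4-fold from internode to base in both genotypes. The dim genes AT4G24110 (-0.12), AT4G33560 (-0.14) and AT5G10040 (0.07) had intervals that span 0.

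In the first internode limma called none of the 10 genes between genotypes, with 0.242% of all probe sets called. At an unadjusted p under 0.05 the count was 3 of 10, against 1819 of 22746 probe sets. The values were below 0 for 9 of 10 genes, against 48.4% of all probe sets, with medians of -0.23 and 0.00. The 9 include the dim genes AT4G24110 (-0.03) and AT4G33560 (-0.01). AT4G27450 was lowest again, with -0.66 (SE 0.18, adjusted p 0.186) and groups that did not overlap, and -0.41 without wox4-1 internode replicate 2. AT3G27220 differed by -0.25 (SE 0.10, adjusted p 0.512), also without overlap, a pattern of 2 of 10 genes and 6.79% of all probe sets. AT1G19530 differed by -0.42 (SE 0.19, adjusted p 0.623). For AT3G10020 the difference was -0.49 (adjusted p 0.643), and -0.89 and called (adjusted p 0.00766) without wild-type internode replicate 3, which held the lowest value of all 12 arrays for this gene.

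Whether the genotype difference itself changed between base and internode was tested in the same fit, which is also the test of whether the position difference changed with genotype. None of the 10 genes passed, and 0.0044% of all probe sets did. AT4G10270 and AT4G27450 were kept in this count, although the contrasts they were selected on enter this one. At an unadjusted p under 0.05 there was 1 of 10, HRU1, with log2 -0.39 (SE 0.15, 95% interval -0.72 to -0.06, limma adjusted p 0.579). AT4G27450 had -0.36 (95% interval -0.89 to 0.18) and AT1G19530 0.46 (-0.13 to 1.04). The genotype effects at base and internode are thus not shown to differ after adjustment, nor to be alike.

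Arrays of a group deviated together in several of these genes. The deviations of AT1G33055 from its group means ran with those of AT1G19530 (Pearson r = 0.84 over 12 arrays) and of AT3G10020 (0.83), the latter a gene that did not share the position pattern. HRU1 and AT4G33560 ran together with r = 0.76, and AT4G10270 and AT3G27220 with 0.69. Of 45 pairs, 37 had a positive r, with a median of 0.24. Pairs of other probe sets were not counted in this way, so this count has no background beside it. All pairs share the same arrays, and the r of AT1G33055 with AT1G19530 ranked 45 among the 22745 probe sets set against AT1G33055. Wild-type internode replicate 3 was below its group mean for 8 of 10 genes, by 0.80 in AT3G10020, 0.57 in AT1G33055 and 0.46 in AT1G19530, while 48.0% of all probe sets were above theirs. At the wox4-1 base, replicate 1 was above its group mean for 9 of 10 genes and replicate 2 below it for 9 of 10, with 54.8% and 46.0% of all probe sets above. Wild-type replicate 2 was above it for 8 of 10 genes at the base and 9 of 10 in the internode, against 47.2% and 44.7% of all probe sets. AT4G27450 had its own pattern, with the largest deviation on wox4-1 internode replicate 2 (-0.51).

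**Figure D3:**
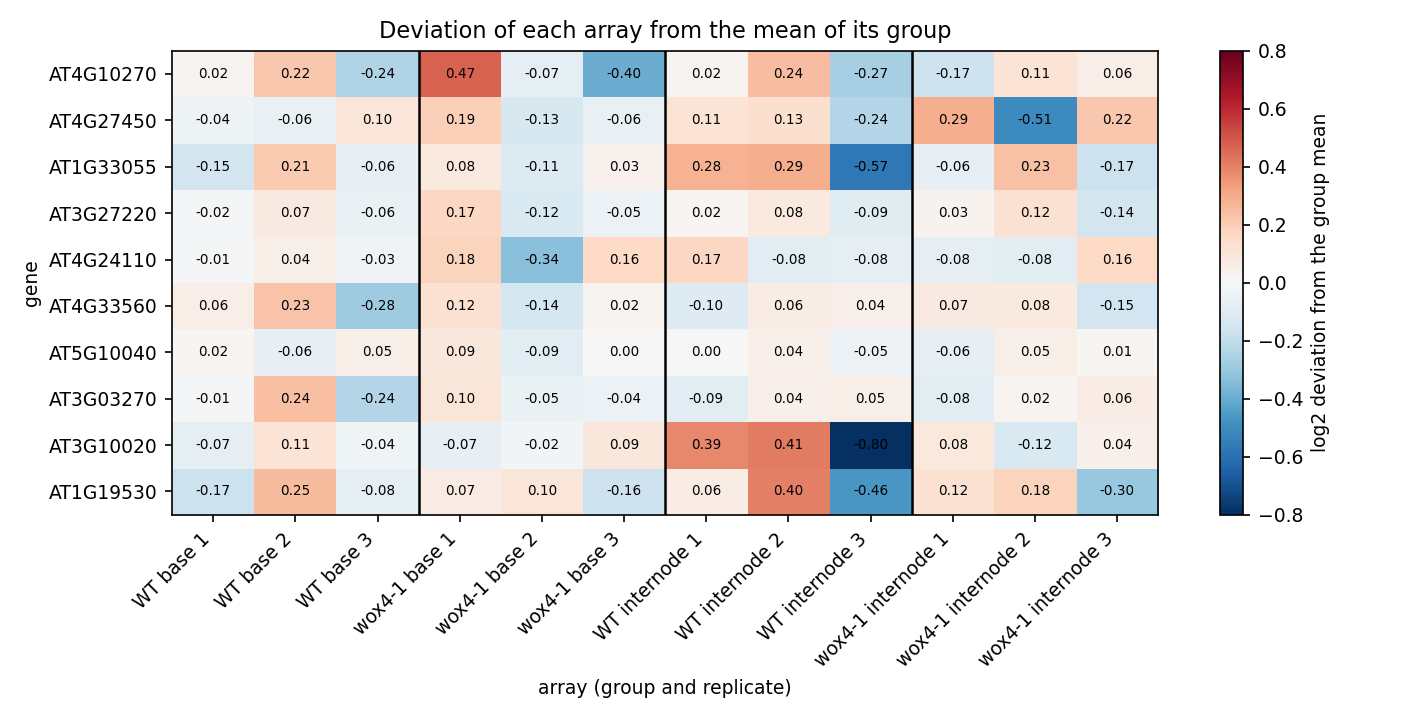
Rows are the 10 genes and columns the 12 arrays, and each cell gives the log2 deviation from the mean of the 3 arrays of its group. Blue cells are below and red cells above the group mean. The column of wild-type internode replicate 3 holds the lowest cell (-0.80, AT3G10020), and AT5G10040 hardly departs from 0.

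The 12-array pattern of AT4G10270 was set beside that of all other probe sets. Among probe sets naming 1 gene, the 5 with the highest Pearson correlation were AT1G44760 (r = 0.99), AT1G10640 (0.99), AT3G27220 (0.99), AT2G43660 (0.99) and AT1G06760 (0.99). Thus 1 of the 5 is itself on the low-oxygen list. Among all 22745 other probe sets, named or not, AT3G27220 ranked 6, AT1G33055 ranked 19 and AT1G19530 ranked 36 by this measure. Since the 12 points fall into a base and an internode cluster, such values mostly describe that step. By rank correlation none of the 5 genes was shared. For AT4G27450 the 5 were LUL1, a ubiquitin ligase gene, AT3G11100, AT5G23760, AT1G47670 and GID1A, a gibberellin receptor gene, with r of 0.96 each, and the nearest gene of the list was HRU1, at rank 398 (r = 0.85). GID1A shared the order of the groups, with differences of 1.12 between base and internode in wild type and -0.87 between genotypes at the base.

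A wider set of 60 genes of the low-oxygen response, for sensing, transcription, fermentation and other induced functions, was taken from general knowledge. It was written with earlier results of these arrays known, so its counts are not independent of them. Only 16 of the 60 had a named probe set, and none of 13 sensing genes did. At the wild-type base 4 of 16 were higher and 1 lower, in wox4-1 3 were higher and 1 lower, with the background of 9.6% and 11.4% called higher given above. Their median log2 difference was 0.14 in wild type and -0.02 in wox4-1, against 0.01 and 0.04 over all probe sets.

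HRA1 (AT3G10040), a trihelix transcription factor gene that is induced by low oxygen and restrains the response, was measured as well. Its level was 6.04, 5.90 and 5.72 at the wild-type base, 5.02, 5.45 and 5.40 at the wox4-1 base, 4.56, 4.36 and 4.24 in the wild-type internode and 3.97, 4.29 and 4.24 in the wox4-1 internode. No wox4-1 base array reached the wild-type base, while the internode groups overlapped. HRA1 rose at the base by log2 1.50 in wild type (SE 0.13, limma adjusted p 4.91e-06) and by 1.13 in wox4-1 (SE 0.13, adjusted p 5.14e-05). At the base it fell by 0.60 in wox4-1 (SE 0.13, adjusted p 0.0234). It no longer passed with wild-type base replicate 1 (adjusted p 0.0837), base replicate 2 (0.085) or wox4-1 base replicate 1 (0.0619) left out, or with the 2 base groups fitted alone (0.0643).

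Of the 14 fermentation and sugar genes, LDH and PDC2 were measured. LDH, for lactate dehydrogenase, was at 8.02, 8.26 and 8.32 at the wild-type base, 8.75, 8.38 and 8.59 at the wox4-1 base, and 7.72 to 7.98 on the internode arrays. It rose at the base by log2 0.70 in wox4-1 (SE 0.11, limma adjusted p 0.000467). In wild type the rise was 0.33 (SE 0.11, adjusted p 0.0489), a call that 9 of the 12 single-array omissions ended, with adjusted p up to 0.179. Unlike the listed genes with a genotype call, LDH stood higher at the wox4-1 base on every array, by 0.37 (SE 0.11, adjusted p 0.0691), and this passed without wox4-1 base replicate 2 (0.47, adjusted p 0.0304). PDC2, for pyruvate decarboxylase, was higher at the wild-type base by 0.44 (SE 0.15, adjusted p 0.0571) and by 0.34 in wox4-1 (adjusted p 0.121). The wild-type value passed in 7 of 19 alternative fits, among them wild-type replicates as pairs (0.0343) and median centring (0.0467). The wox4-1 value passed in 1 of 18, without wox4-1 base replicate 2 (0.025).

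Among 13 other induced genes measured, AT1G74940 rose at the base by log2 0.62 in wild type and 0.46 in wox4-1 (SE 0.09 each, limma adjusted p 0.000208 and 0.00173). AT5G26200 fell by 0.56 and 0.47 (SE 0.10 each, adjusted p 0.00146 and 0.00394). AT5G42200 was at 5.49, 5.82 and 5.48 at the wild-type base and between 4.59 and 5.16 on all other arrays. It rose at the wild-type base by 0.56 (SE 0.12, adjusted p 0.00508), did not pass in wox4-1 (-0.02, adjusted p 0.929), and at the base fell by 0.78 in wox4-1 (SE 0.12, adjusted p 0.00334). HRA1 and AT5G42200 were the 2 of 16 genes called between genotypes at the base, both lower in wox4-1, beside 2.51% of all probe sets called lower and 2.52% higher. In the internode limma called none of the 16 between genotypes, and 0 of 16 had an unadjusted p under 0.05, against 1819 of 22746 probe sets. The difference between both genotype effects was -0.58 for AT5G42200 (SE 0.17, adjusted p 0.493) and did not pass.

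**Figure D4:**
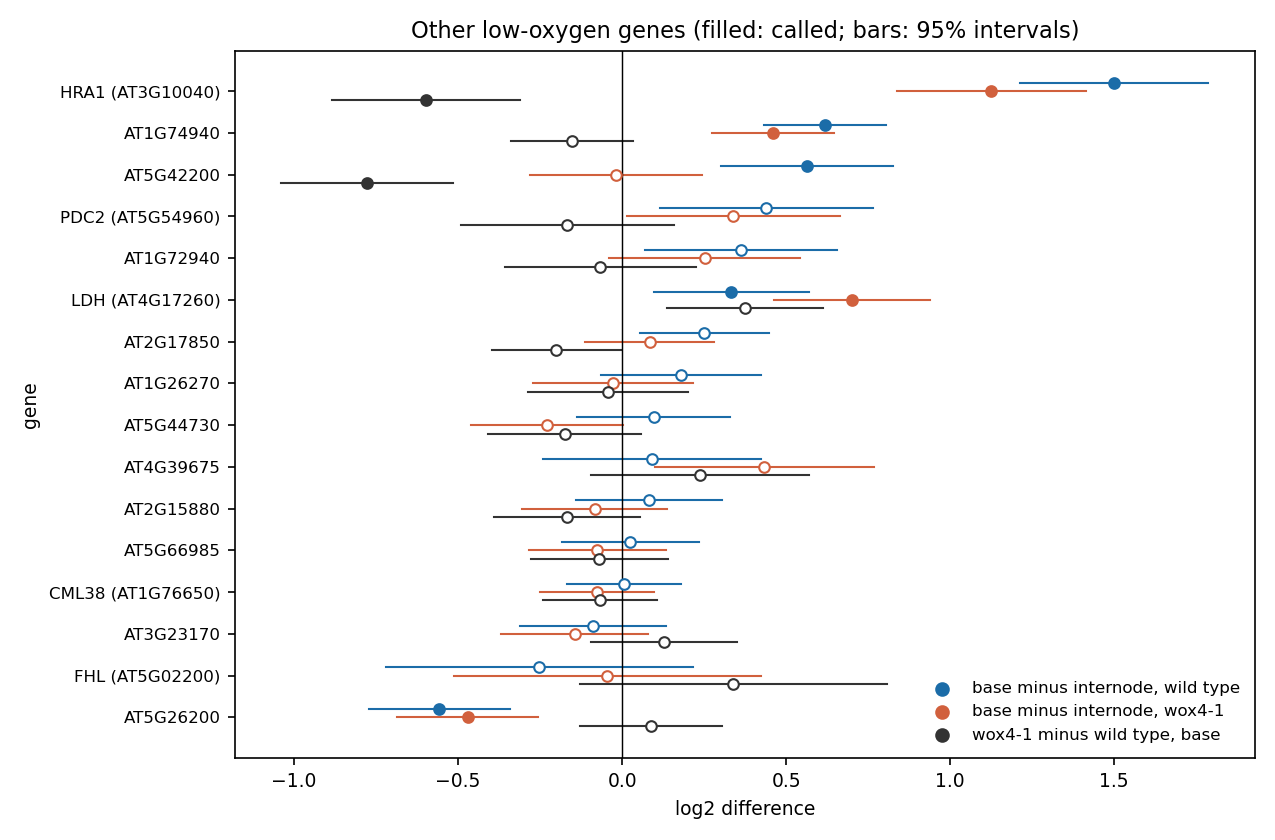
The horizontal axis shows log2 differences for the 16 measured genes of the wider low-oxygen set, 1 row per gene, with 95% intervals. Colours separate the position difference in wild type, that in wox4-1 and the genotype difference at the base, and filled points are called. HRA1 lies farthest from 0 for position, with 1.50 and 1.13.

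Relatives of the listed genes moved in different ways. Of 2 other measured genes of the wound-responsive family, AT4G28240 rose at the wild-type base by log2 0.32 (SE 0.10, limma adjusted p 0.0336), a call lost on leaving out any 1 of the wild-type base arrays or internode replicate 1 (adjusted p 0.0529 to 0.143), and AT4G05070 did not pass (0.22, adjusted p 0.211). Of 15 other universal stress protein genes, 3 rose and 2 fell at the base in each genotype, beside the background of 9.6% and 10.1% in wild type and 11.4% and 13% in wox4-1. AT1G09740 rose by 1.41 and 1.31 (SE 0.13 each, adjusted p 7.77e-06 and 1.27e-05) and AT2G47710 by 0.44 and 0.49, while AT3G11930 fell by 1.00 and 1.17 and AT3G62550 by 0.90 and 1.41. AT1G11360 was called in wild type (0.28, adjusted p 0.0344). In wox4-1 its value was 0.23 (adjusted p 0.0666), which passed with median centring (0.32, adjusted p 0.0153) and without wox4-1 base replicate 3 (0.0373). The wild-type call was lost with wild-type replicates as pairs (0.0566) and on leaving out any of 5 single wild-type arrays, that is all but internode replicate 2 (up to 0.147). AT5G14680 was called in wox4-1 (0.44, adjusted p 0.00287), and its value in wild type was 0.24 (adjusted p 0.0829, and 0.0382 without wox4-1 base replicate 1). AT3G11930 stood lower at the wox4-1 base by log2 -1.03, a value that, like that of AT4G27450, had been singled out in earlier results and is given without a test. Of the 4 other genes with YGL and LRDR motifs, AT3G22850 rose at the base in both genotypes (0.60 and 0.63, SE 0.08 each, limma adjusted p 0.000134 and 7.37e-05) with no genotype difference at the base (0.02, 95% interval -0.15 to 0.19), and AT3G15450, AILP1 and AT5G43830 did not pass in any comparison.

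Of 9 genes known to respond to touch and handling, STZ and AT4G29780 were measured, and neither was called in any comparison. Their wild-type position differences were log2 -0.26 (95% interval -0.75 to 0.22) and -0.10 (-0.43 to 0.22). No gene of the wounding and jasmonate list (11 genes) or of the sugar starvation list (8 genes) had a named probe set.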

How the data were processed

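The authors deposited log2 expression values per probe set, made with RMA per the submitters' processing notes. RMA corrects background, normalizes quantiles across arrays and summarizes probes by median polish. Its version is not given in the sources used here. Of 22810 probe sets, 64 controls were set aside. Gene names came from the platform table, with 13513 probe sets carrying 1 gene, 503 several and 8730 none here, and 13484 were matched to a locus of the RefSeq gene table (TAIR10.1).

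The 4 group means were estimated in a single model of the 12 arrays with limma 3.58.1 in R 4.3.3 (lmFit, eBayes), and p-values were adjusted by Benjamini-Hochberg over 22746 probe sets per contrast. The code was tested on simulated data. For arrays, 3 replicates per group limit the precision.

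The 10 genes and all lists were chosen with earlier results of these data known. Named genes were the 10, called genes of the low-oxygen and family lists (up to 4 per direction and contrast, or the 2 with the smallest p), and the 5 probe sets with 1 gene most like AT4G10270 and AT4G27450. Some uncalled ones are given by count.

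Same-numbered wild-type arrays of base and internode deviated together (r = 0.29, 0.59 and 0.31 over all probe sets), so they were also fitted as pairs. For wox4-1 (0.14, 0.24 and -0.05) and between genotypes at the same position (-0.06 to 0.06) the rule for pairs was not met.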

Additional observations from a re-analysis of the deposited data

How the results depend on the processing

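The 10 genes gave 885 values under the alternatives (2 groups alone, median centring, trended and robust variances, no dim probe sets, replicate block, omitted arrays), of which 20 lost a call, 14 gained one, none that was called changed sign and 23 uncalled in both fits did. Counts here are over all 10 genes and include AT4G10270 for position and AT4G27450 between genotypes at the base. For position they stayed within 1.5 times, with 6 to 8 in wild type and 5 to 8 in wox4-1 when single arrays were left out, and the 8 in wild type holds AT3G10020, called lower without wild-type internode replicate 3. At the base between genotypes the count of 3 ranged from 1 to 5 with single arrays left out and was 1 without both wild-type replicate 2 arrays, which leaves 0 of the 9 genes tested. In the internode it was 0 or 1 with single arrays left out. With the replicate block across all 4 groups the counts were 7, 6, 3, 0 and 0, as without it, and with wild-type arrays as pairs 7; apart from PDC2 and AT1G11360, named above, the pairs changed no wild-type position call of the genes named. Centring moved the median of all probe sets by 0.09 or less. It moved the share of higher calls from 46.8% to 67.5% for position in wox4-1 and from 50.1% to 72.4% between genotypes at the base. The causes were not tested. No locus had a second named probe set, so that alternative gave no value. Of 5 genes most like AT4G10270 and AT4G27450, Spearman shared 0 and 2 with Pearson. Dim signal limits AT4G24110, AT4G33560 and AT5G10040.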

Other observations

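Genes that lie next to the listed loci in the RefSeq order of protein-coding genes were looked at after their values were seen. Of 40 such neighbours, 2 on each side of every locus, 19 were measured. At the wild-type base 4 of them were called higher, 2 lower and 13 neither, against 9.6% of all probe sets called higher and 10.1% lower. AT3G27210, beside AT3G27220, rose at the wild-type base too, by log2 1.23 (limma adjusted p 0.000686), with r = 0.96 to AT3G27220 over 12 arrays. AT1G19540, beside AT1G19530, rose by 0.58 (adjusted p 0.000845, r = 0.94). The third, AT1G33060 beside AT1G33055, rose by 0.38 (adjusted p 0.0268, r = 0.76), and the fourth is HRA1. The 2 that fell were AT1G33050 on the other side of AT1G33055 (-0.38, adjusted p 0.0314, r = -0.68) and AT4G27435 near AT4G27450 (-0.32, adjusted p 0.0321, r = -0.71). AT3G10020, AT3G10030 and HRA1 follow each other. At the base all of them stood lower in wox4-1, by log2 -0.55 (limma adjusted p 0.191), -0.47 (0.0163) and -0.60 (0.0234). Of the 19 measured neighbours, these 2 were the only ones called between genotypes at the base, against 2.51% of all probe sets called lower and 2.52% higher. The HRA1 call depended on single arrays, as given above, and AT3G10030 was not checked in this way. Of these genes HRA1 alone was called for position in wild type. The measured neighbours AT4G10260 and AT4G10280 of AT4G10270 were not called (0.03 and 0.20, adjusted p 0.925 and 0.322), and the wound-responsive gene AT4G10265 next to it had no named probe set.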
